A study of Mus musculus with 47 samples.

Results

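The transcriptome of a library labelled Raw264.7 Z8 KO was compared with that of a library labelled Z8 KO + Z8, in which Zmynd8 knock-out cells carried WT Zmynd8 again. The Raw264.7 line derives from a mouse leukemia and has macrophage character, and the design asks which genes differ when the factor is missing from cells that can otherwise express it. Every gene of the deposited table except Zmynd8 itself was taken, which gave 23771 genes out of 23772. Of these, 14484 had a mean value, over both libraries, of 10 or more and were compared. The rest were left out as too low. The series has 47 samples, and this comparison uses 2 of them, 1 library a side, so no difference has a replicate check and no p-value is given. According to the labels and Methods, the knock-out was made with a lentiviral CRISPR guide (LentiCRISPR-v2) and the rescue by ectopic expression, and both libraries are knock-out cells at the Zmynd8 locus. Whether either line was 1 clone or a pool is not stated. The treatment protocol of the labels mentions vehicle and LPS (lipopolysaccharide, a bacterial cell wall component) without assigning either to a library. The study's text describes RNA-seq of the rescue line and of the D/E-A mutant line as made after LPS, but no source used here gives the treatment of the Z8 KO library, so genotype and treatment cannot be told apart here. The library labelled Z8 KO held 21042628 reads and that labelled Z8 KO + Z8, called the rescue library below, held 18397028.

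ZMYND8 is a chromatin reader that binds acetylated and methylated histone tails and works with demethylases, deacetylases and bromodomain proteins at enhancers. LPS is sensed by Toll-like receptor 4, which activates NF-κB and, through interferon β, the interferon-stimulated genes. NF-κB drives cytokines such as IL-1β and IL-6, chemokines that call in other leukocytes, and enzymes such as NOS2, which makes nitric oxide. The same factors switch on their own brakes, among them the deubiquitinase TNFAIP3 and the SOCS proteins. NRF2 is a separate arm that induces antioxidant genes and heme oxygenase.

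All values below are the deposited ones, which are read numbers scaled by 1 size factor per library. A difference is log2((Z8 KO value + 1)/(rescue value + 1)), positive where the Z8 KO library is higher, and a gene counts as called from 2-fold on. Brackets hold exact 95% Clopper-Pearson limits on the reads, which cover counting error only. Zmynd8 (mm10, chr2:165784152-165898981) was listed at 116 in the Z8 KO library and at 506 in the rescue library. Its value in the Z8 KO library, which corresponds to 121.5 reads, was the 1 value of that library that is not a whole number of reads, and it was therefore not used to check the label.

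The markers of both libraries went against the cell type label Raw264.7, beside which the labels name bone marrow as the source. S100a8 (chr3:90669071-90670034), a neutrophil calprotectin subunit, had 1622 RPM (reads scaled to a library total of 1000000) in the Z8 KO library, 2709 in the rescue library and 969 in the library with the D/E-A mutant of ZMYND8, but at most 2 reads in each of the 3 Raw264.7 libraries of the p65 lines. Camp, a granule peptide of maturing neutrophils, had 592 and 950 RPM in the Z8 KO and rescue libraries, against at most 0.198 in the p65 lines. Apoe, made by tissue macrophages and BMDMs (bone marrow-derived macrophages), had 10976 and 11957 RPM, against at most 9.52 in the p65 lines. Xist, the RNA of the inactive X chromosome, had 7109 and 8467 reads, while the p65 lines had at most 3. The Y-linked Ddx3y had 0 reads and 1 read, while the p65 lines had 400 to 1810. B cell genes went both ways. Ms4a1, which encodes CD20, had 408 and 231 reads and Cd79a, a chain of the B cell receptor, 746 and 862, while the p65 lines had at most 2 and 4, but Ighm, the heavy chain of IgM, had 169 and 175 RPM against 142 to 177, and Bank1, an adaptor of B cells, 2.80 and 1.79 RPM against 6.00 to 7.80. Of the macrophage genes, Cd68 was at 331 and 275 RPM in the Z8 KO and rescue libraries and at 305 to 356 in the p65 lines, but Adgre1, which encodes F4/80, was at 651 and 336 RPM against 50.7 to 75.2, and the Fc receptor gene Fcgr3 at 323 and 240 against 3.57 to 4.86. Nos2, which LPS induces, and the interferon-stimulated gene Rsad2 were high in both libraries, with 1206 and 500 RPM for Nos2 and 8965 and 7378 for Rsad2. Across genes, which are not replicates, the levels of the Z8 KO library had a Spearman rho of 0.961 with the rescue library (7366 genes with at least 10 RPM in either), 0.968 with the D/E-A library (7318 genes), 0.769 with LPS-treated WT BMDMs (7575 genes) and 0.546 to 0.592 with the 3 p65 lines (8499 to 8743 genes). Only genes listed for every Raw264.7-labelled library and every untreated or LPS-treated BMDM library entered these correlations, which left out S100a9 and Ngp, among others. These tables were made and normalized separately, so only such wide gaps can be read from them. The libraries are named by their labels below, and what cells they were made from was not settled.

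**Figure D1:**
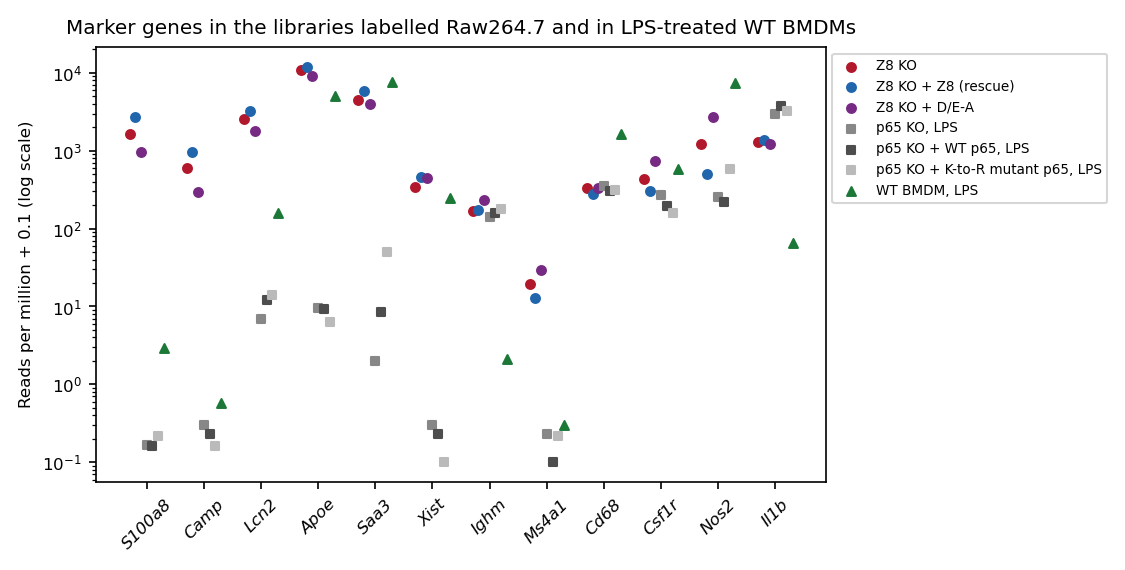
RPM plus 0.1, on a log axis, of 12 marker genes in the 6 libraries labelled Raw264.7 and in the LPS-treated WT BMDM library, 1 point per library. The 3 Zmynd8 lines sit together and far above the 3 p65 lines (squares) for S100a8, Camp, Apoe, Saa3, Xist and Ms4a1, while Cd68 and Ighm lie close in both sets of lines.

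At a fold change of at least 2, 507 genes were higher in the Z8 KO library (3.5% of those compared) and 1080 were lower (7.46%). The median difference over all 14484 genes was 0.06. The balance turned with the level and the kind of gene. Among the 9203 genes with mean values of 100 or more, 211 were called, of which 89 were lower (0.967%) and the others higher (1.33%). The median there was 0.13. Among the 8785 protein-coding genes at that level, 110 were higher and 35 lower. Of the 1080 lower genes, 66.1% were not protein coding. Among the 2509 compared genes that are not protein coding, 28.5% were called lower and 5.06% higher, against 3.06% and 3.17% of the protein-coding genes.

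Noncoding genes as a whole were shifted. The median difference was -0.91 for 368 loci of type TEC (transcripts to be experimentally tested), -0.88 for 41 sense-intronic RNAs and -0.46 for 1008 lncRNAs, against 0.12 for 11975 protein-coding genes. Ribosomal RNA was lower in the Z8 KO library as well. The mitochondrial ribosomal RNAs mt-Rnr1 and mt-Rnr2 had values of 19744 and 38204 in the Z8 KO library and of 53424 and 99585 in the rescue library, differences of -1.44 and -1.38, and together took 0.287% of its reads against 0.798% in the rescue library. The 18S ribosomal RNA copy Rn18s-rs5 took 11.1% of the reads of the Z8 KO library and 13.7% of those of the rescue library, and it overlaps LOC101056014 on chromosome 17, so reads of the pair may be shared. The neighbouring lincRNA locus ENSMUSG00000097971.3 (chr17:39843013-39846341) had values of 15960 and 46548, a difference of -1.54. Malat1, a nuclear RNA retained in speckles, had 25992 and 40768 (-0.65). Among protein-coding genes the difference followed the summed exon length, with a median of -0.08 in the shortest quartile (median length 1945 bases) and 0.23 in the longest (9063 bases). Because the authors deposited no measure of RNA integrity, the part of these shifts in any gene's difference was not tested.

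**Figure D2:**
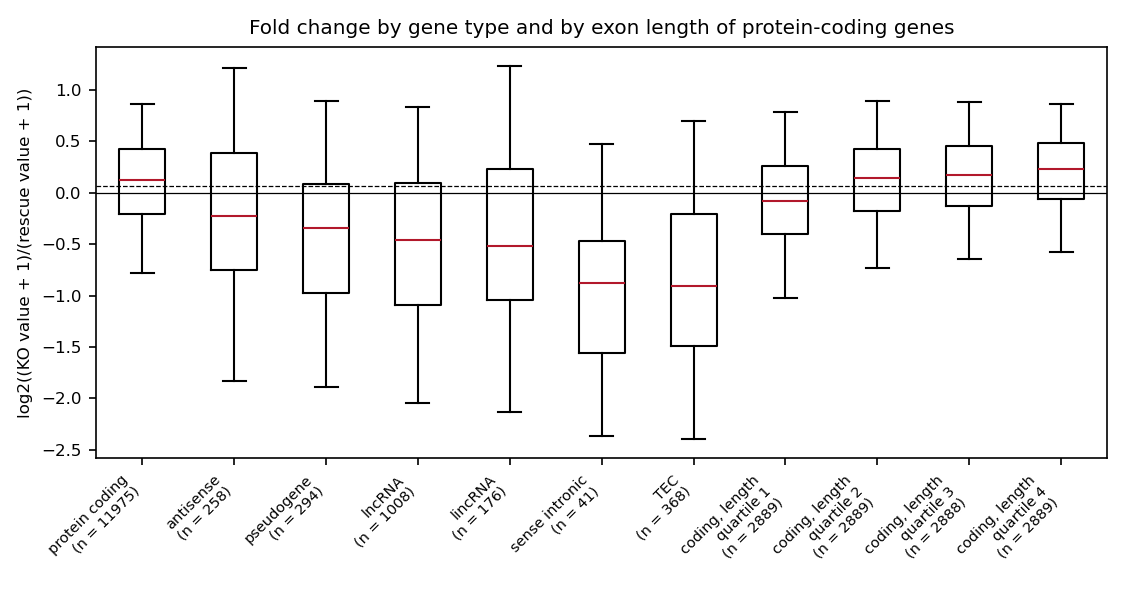
Difference between the Z8 KO and rescue libraries (log2, value + 1) by gene type and, for protein-coding genes, by quartile of exon length. Boxes span the quartiles with the median in red, whiskers the 5th to 95th percentile of genes, and the dashed line the median of all compared genes, 0.06. TEC and sense-intronic loci lie lowest and the longest coding genes highest.

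The gene with the highest difference among those with mean values of 100 or more was 2310034P14Rik, at 240 in the Z8 KO library and 69 in the rescue library, a difference of 1.79 (1.4 to 2.21). Lipg (chr18:74939322-74961263), the endothelial lipase that cleaves phospholipids of HDL, had 9263 and 3193, a difference of 1.54 (1.48 to 1.60). Selp, which encodes P-selectin, had 259 and 91 (1.5). All 3 stood well outside counting error. Isoc1, an isochorismatase-domain protein, had 1230 and 447 (1.46), and Fam84b 263 and 95 (1.46). Tlr9 (chr9:106222598-106226876), the endosomal sensor of unmethylated CpG DNA, had 1531 and 577, a difference of 1.41 (1.27 to 1.55). Fgl2 (chr5:21372673-21378386), a fibrinogen-like protein of activated macrophages, had 20716 and 8112 (1.35, limits 1.32 to 1.39). The 12 highest also held the ubiquitin ligase gene Rnf217 (232 and 90, difference 1.36), 2 TEC loci, 1 lncRNA (D130020L05Rik, 244 and 81) and 1 antisense RNA. Lipg and Fgl2 were the 2 abundant genes of this set, and both belong to the genes that LPS raised in WT BMDMs, described further on.

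At the same minimum mean value of 100, the 12 lowest were without exception noncoding loci. ENSMUSG00000103907.1, a TEC locus on chromosome 3, had 38 in the Z8 KO library and 181 in the rescue library, a difference of -2.21, and LOC108168816, a lncRNA, had 105 and 386 (-1.86). The lowest protein-coding genes at that level, named after their values were seen, were Nrp at 68 and 212 (-1.62), Gm32584 at 72 and 201 (-1.47), Grtp1 at 70 and 188 (-1.41) and Foxp3 at 95 and 243 (-1.35). Foxp3 (chrX:7579676-7595243) encodes the defining factor of regulatory T cells. It was at 4.70 RPM in the Z8 KO library, 12.7 in the rescue library and 6.85 to 8.86 in the p65 lines. Those lines had at most 1 read of the T cell gene Cd3d. Bzrap1 had 413 and 980 (-1.24), and Ccl24 (chr5:135569937-135573123), an eosinophil-attracting chemokine, had 887 and 2046, a difference of -1.20 (-1.32 to -1.09). Lars2, the mitochondrial leucyl-tRNA synthetase, was the most abundant coding gene called lower, with 66937 and 142242 (-1.09).

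**Figure D3:**
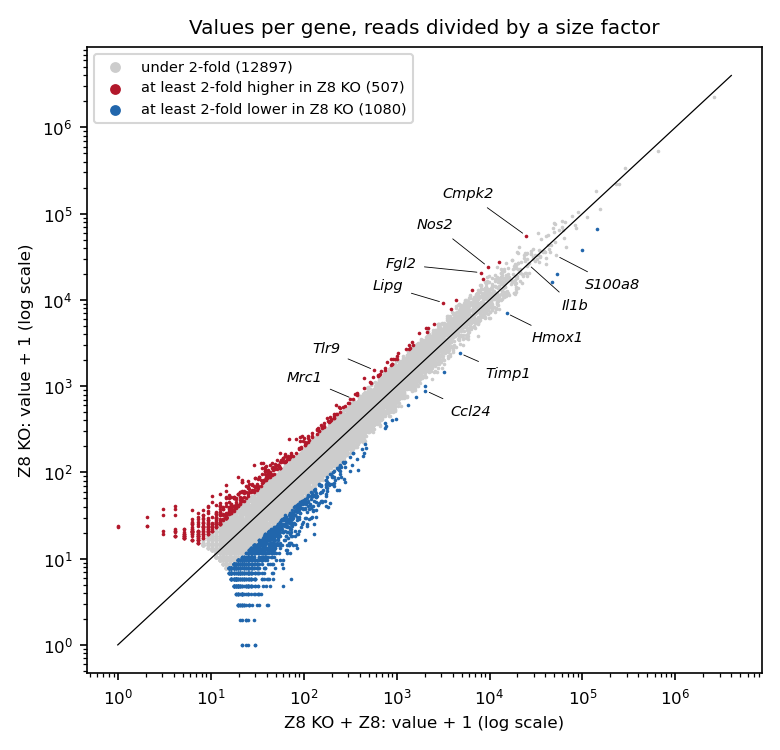
Value plus 1 of each of the 14484 compared genes in the rescue library (x axis) and in the Z8 KO library (y axis), both on log axes. Red points are the 507 genes at least 2-fold higher in the Z8 KO library and blue points the 1080 at least 2-fold lower, most of which have values under 100, and the line marks equal values.

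Of the inflammatory genes, Nos2 and Cxcl9 were called higher in the Z8 KO library, and Il1b was level. Nos2 (chr11:78920787-78960232), the inducible nitric oxide synthase, had 24330 in the Z8 KO library and 9593 in the rescue library, 2.54-fold, a difference of 1.34 (1.31 to 1.38). Ccl2 (chr11:82035577-82037452), which attracts monocytes, had 2976 and 1567, a difference of 0.92 (0.84 to 1.0), just short of a call. Cxcl10 (chr5:92346638-92348889), a ligand of CXCR3 on T cells, had 77411 and 49022 (0.66). Its neighbour Cxcl9 (chr5:92321331-92328079) had 2801 and 1396 (1.00, limits 0.91 to 1.10), just inside a call. Scaling to library totals, which lowers every difference by 0.07, ends this call (0.93) and those given further on for Socs3, Adgre1, Mrc1 and Rapgef2. Totals without ribosomal RNA, which lower every difference by 0.14, also end the calls of Tlr8, Tlr5, Idi1, Lss, Myc and Pira2. Il1b (chr2:129363842-129371170) had 25945 and 26010, a difference of 0.00 (-0.03 to 0.02). Under the deposited size factors the libraries thus agree within counting error for this gene, but the other 2 scalings lower its difference by 0.07 and 0.14 as well. Il6 had 2219 and 1994 (0.15), Il1a 3004 and 2610 (0.20) and Ccl5, a chemokine that attracts T cells and monocytes, 74587 and 84049 (-0.17). Tnf had 6914 and 8070 (-0.22), and Ifnb1, which encodes interferon β, 271 and 458 (-0.75). The well-known LPS cytokines thus did not share a direction.

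**Figure D4:**
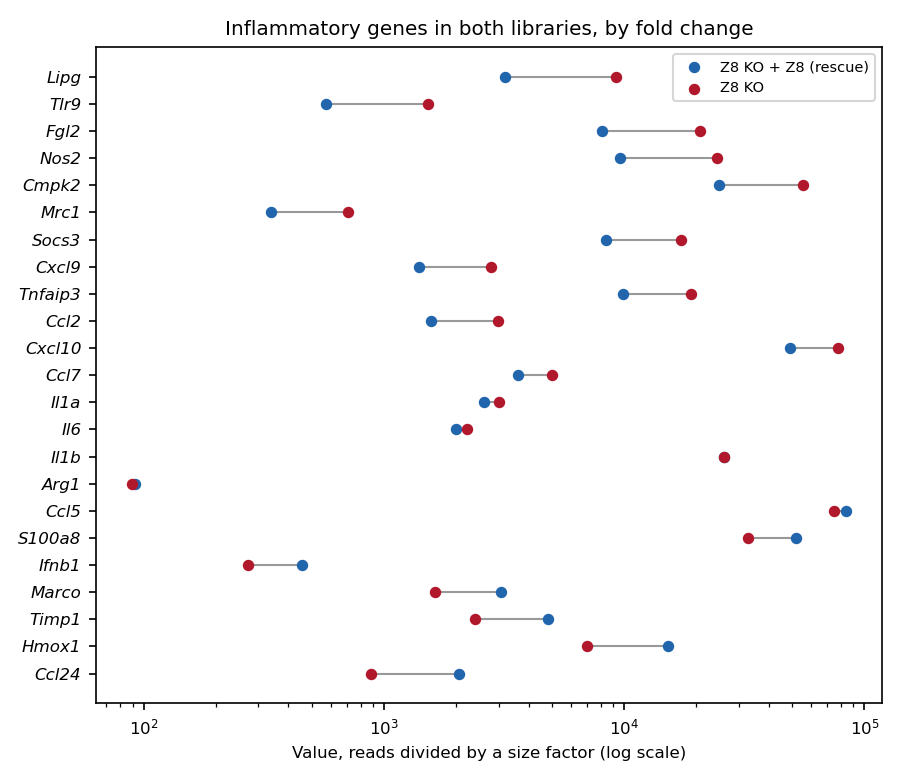
Values of 23 genes in the Z8 KO library (red) and the rescue library (blue), on a log axis, ordered from the highest difference at the top to the lowest at the bottom. Lipg, Tlr9, Fgl2 and Nos2 lie highest, Il1b is level, and Hmox1 and Ccl24 lie lowest.

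The whole lists showed the same spread. Of 24 inflammatory cytokines compared, 0 were called higher and 1 lower (Lif, at 21 and 44; 4.17%), beside 3.5% and 7.46% of all compared genes, and at 1.2-fold 3 were higher and 6 lower, while 34.7% of all genes were 1.2-fold higher and 28.3% were lower. The median of the cytokines was 0.02, under that of all genes. Of 25 chemokines, 1 was called higher (Cxcl9) and 1 lower (Ccl24), which is 4% each way and, among the 21 with mean values of 100 or more, 4.76% each way beside 1.33% and 0.967% of all genes at that level, and 11 were higher and 6 lower at 1.2-fold. The chemokine median was 0.12. Ccl12, a second monocyte chemokine, had 1451 in the Z8 KO library and 827 in the rescue library (0.81), Ccl7 had 5018 and 3628 (0.47) and Ccl22, a ligand of CCR4, had 2460 and 4019 (-0.71).

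Few enzymes, receptors and brakes of the LPS response were called, and most of their differences were small and above 0. Abundant genes as a whole lay on that side too, since the 2822 genes with mean values of 1000 or more had a median of 0.20, with 44.2% of them 1.2-fold higher and 13.4% lower. Of 29 LPS effector enzymes and receptors, 1 was called higher (Nos2; 3.45%, beside 3.5% of all compared genes and 1.33% of those with mean values of 100 or more) and 0 lower, 18 were higher and 4 lower at 1.2-fold, and the median was 0.39. Ptgs2, the inducible cyclooxygenase, had 8855 and 5429 (0.71). Marco, a scavenger receptor, went the other way with 1625 and 3075 (-0.92), and Saa3, an acute-phase apolipoprotein and the most abundant of the list, had 91418 and 113313 (-0.31). Of 33 NF-κB subunits and feedback genes, none reached 2-fold, 14 were higher and 2 lower at 1.2-fold, and the median was 0.22. Tnfaip3 (chr10:19000910-19015410), the A20 deubiquitinase, had 19051 and 9851, a difference of 0.95 (0.92 to 0.99), and Tnip3, a partner of A20, had 16331 and 8859 (0.88). Nfkbia, the inhibitor IκBα and the most abundant of the list, had 30325 and 40680 (-0.42). Rela, which encodes p65, had 3463 and 2968 (0.22). Socs3, a brake on cytokine signalling that is in neither list, was called with 17315 and 8435 (1.04, limits 1.00 to 1.08), and Socs1 had 3518 and 1812 (0.96).

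Tlr9, Tlr8 and Tlr5 were called higher in the Z8 KO library. Of 27 genes of Toll-like receptor signalling, these 3 were called higher and 0 lower, 16 were higher and 1 lower at 1.2-fold, the list median being 0.36. Tlr8, a sensor of RNA, had 1335 and 629 (1.08, limits 0.95 to 1.23), and Tlr5, the flagellin receptor, had values of 14 and 6 and reached the mean of 10 through the Z8 KO library alone. At mean values of 100 or more, 2 of 26 genes of the list were called higher (7.69%), beside 1.33% of all genes at that level. Tlr7, a sensor of single-stranded RNA, had 3349 and 1979 (0.76), and Tlr3, a sensor of double-stranded RNA, differed by 0.61, neither reaching a call. Tlr2, the sensor of bacterial lipoproteins, had 6403 and 6288 (0.03), and Tlr4, the receptor for LPS, 561 and 440 (0.35).

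Of 52 interferon-stimulated genes, 1 was called higher (1.92%, beside 3.5% of all compared genes and 1.33% at mean values of 100 or more, which all 52 reached) and 0 lower, 31 were higher and 2 lower at 1.2-fold, and 41 had a difference above 0, with a median of 0.39. Cmpk2 (chr12:26469212-26479837), a mitochondrial nucleotide kinase, was the call, with 55638 in the Z8 KO library and 24717 in the rescue library, a difference of 1.17 (1.15 to 1.19). Ifit2 had 59836 and 33560 (0.83), Gbp3 14712 and 8012 (0.88) and Rsad2, which encodes viperin, 180900 and 141545 (0.35). Not every member followed, since Isg15 had 29484 and 32456 (-0.14) and Ifit1 36378 and 39078 (-0.10).

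Genes that LPS raised in another set of libraries were drawn on to read the table without a hand-written list. In WT BMDMs, 469 genes were at least 4-fold higher with LPS than without, and 429 of them were among the compared genes. Of these, 16 were called higher in the Z8 KO library (3.73%) and 4 lower (0.932%), beside 3.5% and 7.46% of all genes. At mean values of 100 or more, 12 of 392 were called higher (3.06%) and 3 lower (0.765%), beside 1.33% and 0.967% of all genes at that level. At 1.2-fold, 241 were higher (56.2%) and 42 lower, and the median was 0.33. Those 392 genes had the same median of 0.33, beside 0.13 for all genes at that level. The 1007 compared genes that LPS lowered at least 4-fold in WT BMDMs had 29 called higher (2.88%) and 5 lower (0.497%) and a median of 0.11. At mean values of 100 or more, 14 of 763 were called higher (1.83%) and 0 lower, again beside 1.33% and 0.967%. The 16 higher genes, besides Nos2, Lipg, Fgl2, Tlr9, Cmpk2, Cxcl9 and Socs3, included Sectm1a at 118 and 39 (1.59), Pla2g4a, a phospholipase that frees arachidonic acid, at 2234 and 1010 (1.14), and Rapgef2, an exchange factor for Rap1, at 5279 and 2517 (1.07). The 4 lower genes were Dnah2 at 13 and 42 (-1.57), Hmox1, Pgf, a VEGF-family growth factor, at 121.8 and 245 (-1.0), and Timp1.

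**Figure D5:**
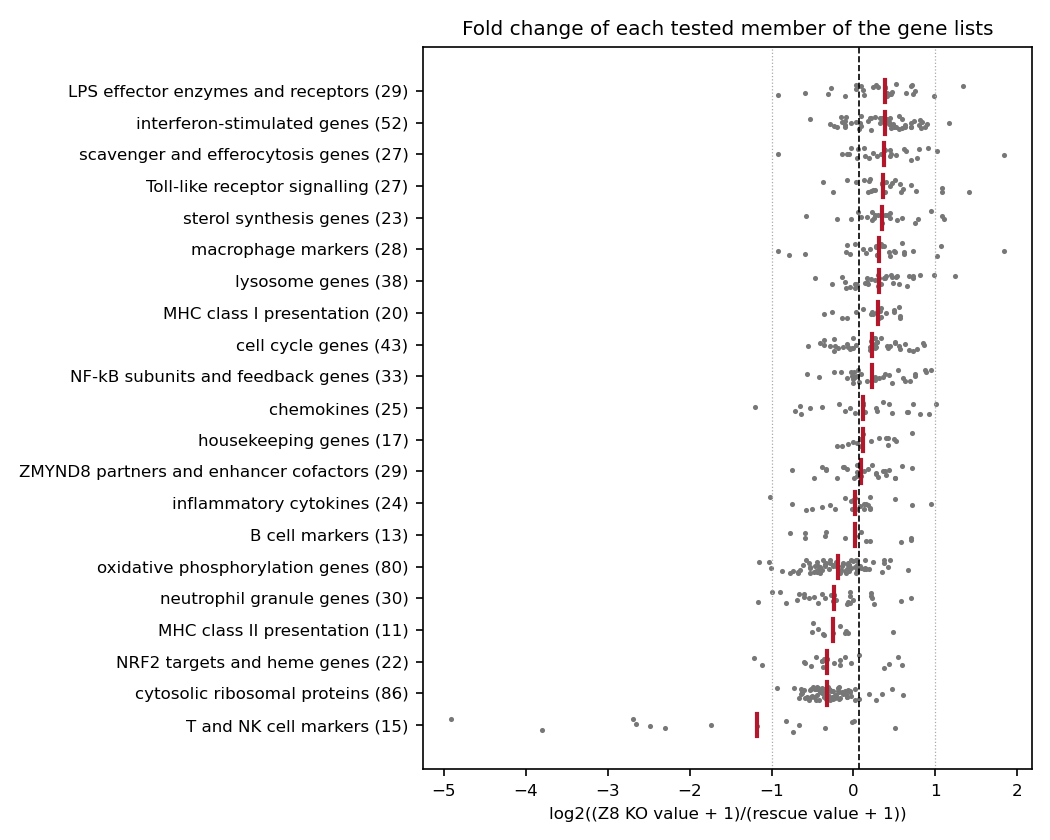
Difference between the Z8 KO and rescue libraries (log2, value + 1) for each compared member of 21 gene lists, with the number of members in brackets. Red bars are list medians, the dashed line is the median of all compared genes, 0.06, and dotted lines mark 2-fold. LPS effectors, interferon-stimulated genes and macrophage lists lie to the right, ribosomal proteins, NRF2 targets and neutrophil genes to the left, and T and NK cell markers farthest left at -1.18, a median that includes the 6 genes whose direction the filter fixed.

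Among antioxidant and heme genes, Hmox1 and Nqo1 were called lower in the Z8 KO library. Of 22 NRF2 targets and heme genes, 0 were called higher and 2 lower (9.09%, beside 7.46% of all compared genes), and among the 21 with mean values of 100 or more 1 was called lower (Hmox1; 4.76%, beside 0.967% of all genes at that level). In the whole list 4 were higher and 12 lower at 1.2-fold, and the median was -0.32. Hmox1 (chr8:75093618-75100593), the inducible heme oxygenase, had 7012 and 15251, a difference of -1.12 (-1.16 to -1.08). Nqo1, a quinone reductase, had 36 and 86 (-1.21), and Slc7a11, the cystine transporter, 2873 and 4335 (-0.59). Fth1, the ferritin heavy chain and the most abundant of the list, had 219294 and 245581 (-0.16). Timp1, an inhibitor of matrix proteases, had 2400 and 4807 (-1.0).

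Most macrophage markers had differences above 0 and most neutrophil genes below 0, with few calls in either list. Of 28 macrophage markers, 3 were called higher and 0 lower, and at mean values of 100 or more 2 of 27 were called (7.41%, beside 1.33% of all genes at that level). In the whole list 18 were higher and 3 lower at 1.2-fold, and the median was 0.31. Adgre1 (F4/80, chr17:57358651-57483529) had 13137 in the Z8 KO library and 6450 in the rescue library, a difference of 1.03 (0.98 to 1.07). Cd163, a hemoglobin scavenger, had 29 and 7 and reached the mean of 10 through the Z8 KO library alone. The mannose receptor Mrc1, a marker of alternative activation, was called with 712 and 339 (1.07), while Arg1, the arginase of that state, had 89 and 92 (-0.04) and Pdcd1lg2, which encodes PD-L2, 80 and 60 (0.39). Of 30 neutrophil granule genes, 0 were called higher and 1 lower (Retnlg, 596 and 1334), which is 3.33% beside 7.46% of all compared genes and 0.967% of those with mean values of 100 or more, as all 30 had. In this list 2 were higher and 14 lower at 1.2-fold, and the median was -0.24. S100a8 had 32721 and 51978, a difference of -0.67 (-0.69 to -0.65), and its partner S100a9 had 41518 and 67096 (-0.69). Camp had 11948 and 18225 (-0.61) and Ly6g, a surface marker of mature neutrophils, 123 and 246 (-1.0). Other members differed less, such as Mpo, the myeloperoxidase, at 2308 and 1997 (0.21), Elane, the neutrophil elastase, at 2037 and 2132 (-0.07), and Ngp, a granule protein, at 35769 and 37888 (-0.08). In bulk samples, fewer cells of a type and less RNA per cell cannot be told apart. The summed values of the neutrophil list were 261138 in the Z8 KO library and 338841 in the rescue library and those of the macrophage list 321066 and 260663, and the part of these shifts in the LPS genes was not tested.

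T and NK cell markers went apart, with the Cd3 genes almost without reads in the Z8 KO library and Cd4 and Cd8a not lower there. Of 15 T and NK cell markers compared, 8 were called lower (53.3%, beside 7.46% of all compared genes and 18.8% of those with mean values from 10 to under 100) and 0 higher, but nothing can be read from this share, since 6 of the 8 had values under 10 in the Z8 KO library and reached the mean of 10 through the rescue library alone, which fixed their direction. The other two were Cd8b1 and Klrd1, at 53 and 121 and at 12 and 41. Of 4 members with mean values of 100 or more, 0 were called. The summed values of the list were 1380 in the Z8 KO library and 1744 in the rescue library. Cd3e had 2 reads in the Z8 KO library and 38 in the rescue library, a difference of -3.80 (-7.47 to -2.42), and Cd3g had 0 and 28 reads, at least 10.1-fold lower against a floor of 3 reads. Gzma, a granzyme of killer cells, had 9 and 57 reads. Thy1, a surface protein of T cells and stroma, was at 5 and 72, a difference of -3.65. Il7r, at 670 and 681, was the most abundant of the list and differed by -0.02. Cd4 had 208 reads in the Z8 KO library and 134 in the rescue library (0.51), Cd8a 170 and 156 (0.00) and the kinase gene Lck 165 and 194 (-0.35). Of 13 B cell genes 0 were called, with a median of 0.02, and Ighm had 3409 and 3363.

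Most ribosomal protein and respiratory chain genes had small differences below 0. Of 86 cytosolic ribosomal protein genes, none reached 2-fold, 4 were higher and 54 lower at 1.2-fold, and 8 had a difference above 0, with a median of -0.32. Rplp1, an acidic stalk protein and the most abundant, had 15606 and 22371 (-0.52). Of 80 oxidative phosphorylation genes, 0 were called higher and 3 lower, with a median of -0.19, and the share called lower was 3.75%, beside 7.46% of all compared genes. At mean values of 100 or more, 1 of 75 was called lower (1.33%, beside 0.967% of all genes at that level). It was Ndufa2, a subunit of complex I, at 999 and 2012 (-1.01). Both families hold short genes, for which the shift with exon length given above ran the same way, and its part was not tested.

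Most lysosome and sterol genes had differences above 0, again with few calls. Of 38 lysosome genes, 1 was called higher (2.63%, beside 3.5% of all compared genes) and 0 lower, and it was 1 of 37 with mean values of 100 or more (2.70%, beside 1.33%). In the whole list 21 were higher and 2 lower at 1.2-fold, and the median was 0.31. Asah1, the acid ceramidase, had 2054 and 870, a difference of 1.24 (1.12 to 1.36), and Ctsc, the cathepsin that activates granule proteases, had 41549 and 20995 (0.98). Lipa, the lysosomal acid lipase, had 2526 and 1744 (0.53). Of 23 sterol synthesis genes, 2 were called higher (8.70%, beside 3.5% of all compared genes) and 0 lower, with a median of 0.34. They were Idi1, the isopentenyl diphosphate isomerase, at 420 and 194 (1.11) and Lss, the lanosterol synthase, at 131 and 62 (1.08).

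The groups of antigen presentation, cell cycle, housekeeping and immediate-early genes held at most 1 call each. Of 20 class I presentation genes, 0 were called, with a median of 0.30 and B2m at 68309 and 48439 (0.50). Of 11 class II presentation genes, 0 were called, 1 had a difference above 0 (Ctss, 35015 and 25092), and the median was -0.25, with Cd74, the invariant chain, at 13382 and 19058 (-0.51). Of 43 cell cycle genes, 0 were called, and the median was 0.23. Housekeeping genes (17) had a median of 0.11 and no call. Among 28 immediate-early genes, with a median of 0.35, the 1 higher call (3.57%, beside 3.5% of all compared genes) was Myc at 397 and 180 (1.13), which is also in the lists of progenitor markers and alternative activation genes.

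The genes of ZMYND8 partners were not called. Of 29 partners and enhancer cofactors, 0 were called in either direction, 11 were higher and 5 lower at 1.2-fold, and the median was 0.09. Kdm1a, the demethylase LSD1, had 997 in the Z8 KO library and 971 in the rescue library (0.04, limits -0.09 to 0.17). Kdm5c, a demethylase of H3K4, had 2232 and 1844 (0.28), and Hdac1, a deacetylase, 2429 and 1709 (0.51). Ezh2, the methyltransferase of H3K27, had 369 and 467 (-0.34). Within the bromodomain proteins the values went apart, with Brd3 at 496 and 833 (-0.75) and Brd2 at 6361 and 5164 (0.30). Lrrc28 had 38 and 22 reads, and its limits, -0.13 to 1.5, include no difference.

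Values of the D/E-A line were set beside these for the genes the comparison turns on. In D/E-A cells, Zmynd8 carries a mutant in which acidic residues are replaced by alanine. The D/E-A comparison uses the same rescue library, so the 2 comparisons are not independent, and it comes from a table normalized separately. In that table, Nos2 had 50270 in the D/E-A library and 8988 in the rescue library, a difference of 2.48, beside 1.34 for Z8 KO. Cxcl9 had differences of 2.48 in D/E-A and 1.00 in Z8 KO, Lipg of 2.29 and 1.54, and Tlr9 of 1.98 and 1.41. Ccl2 had 1.18 and 0.92, and Il1b -0.14 and 0.00. For Timp1 the differences were -1.89 and -1.0, for Hmox1 -1.37 and -1.12, and for S100a8 -1.45 and -0.67. Among T and NK cell genes, Cd3e was at 0.03 in D/E-A and -3.80 in Z8 KO, Gzma at 0.55 and -2.65, Cd5 at -1.64 and -2.48 and Klrd1 at -1.56 and -1.74. Cd3g had 11 reads in the D/E-A library, beside 0 in the Z8 KO and 28 in the rescue library. For Cd3e, Gzma, Cd5 and Cd3g the filter had fixed the direction in Z8 KO, so no contrast between the lines can be read from them. Of members it did not fix, besides Klrd1, Cd8b1 was at -0.54 in D/E-A and -1.18 in Z8 KO, and Cd4 at -0.04 and 0.51. Cd8a was at 0.07 and 0.00, and Lck at 0.35 and -0.35.

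The genes that differed at least 2-fold between LPS-treated Zmynd8 cKO and WT BMDMs, libraries that share no sample with this comparison, were also looked up. Cre was expressed from the Lyz2 locus in cKO mice, and the labels give M1 for the LPS state. Of 28 compared genes higher in cKO BMDMs, 2 were called higher in the Z8 KO library (7.14%, beside 3.5% of all compared genes) and 0 lower, with a median of 0.30. At mean values of 100 or more, 0 of 23 were called. The 2 were Pira2, an Ig-like receptor, at 60 and 28 (1.07) and Klk1b11 at 16 and 4, which reached the mean of 10 through the Z8 KO library alone. Of 17 lower in cKO BMDMs, 0 were called higher and 3 lower (17.6%, beside 7.46% of all compared genes), with a median of -0.09. At mean values of 100 or more, the same count was 3 of 12 (25%), beside 0.967% of all genes at that level. The 3 were Cnbd2 at 102 and 247 (-1.27), Pgf and Timp1. Cnbd2, which encodes a cyclic nucleotide-binding protein, had 82.2 CPM (counts scaled to a library total of 1000000) in WT and 10.2 CPM in cKO BMDMs after LPS, and Timp1 had 135 CPM and 61.5 CPM. Other genes went apart, such as Il12b, a subunit of IL-12, with 8.67 CPM in WT and 27.6 CPM in cKO BMDMs, but 1962 in the Z8 KO library and 2920 in the rescue library (-0.57).

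Promoters were searched because the genes that LPS raises share NF-κB, interferon and AP-1 control in textbook accounts. RefSeq promoters (GRCm38.p6, from 250 bases before to 50 after a start) matched 9925 of the compared genes. The letters searched on both strands were GGGANTTTC for NF-κB, GAAANNGAA for the interferon-stimulated response element and TGANTCA for AP-1. Of 76 genes with a promoter that were called higher at mean values of 100 or more, 1 (1.32%) held the NF-κB letters. The interferon letters were in 8 (10.5%) and the AP-1 letters in 10 (13.2%). Over the 7025 of 9203 compared genes at that level that had a promoter, the shares were 1.32%, 9.74% and 6.53%. Over all 32851 RefSeq promoters read they were 1.11%, 8.56% and 7.81%. With the genes of low level included, 20 of 295 higher genes held the AP-1 letters (6.78%) and 34 of 448 lower genes (7.59%), beside 6.54% of all compared genes. Of the 37 promoters of genes called lower at mean values of 100 or more, 0 held the NF-κB letters, 1 the interferon letters (2.70%) and 4 the AP-1 letters (10.8%). These shares rest on few promoters and were not tested. A match is not a binding site. To show what such promoters look like, 3 abundant members called higher that hold a match are given 5′ to 3′ on the strand of the gene, with the matched letters in capitals.
Cxcl9, chr5:92328030-92328329, minus strand: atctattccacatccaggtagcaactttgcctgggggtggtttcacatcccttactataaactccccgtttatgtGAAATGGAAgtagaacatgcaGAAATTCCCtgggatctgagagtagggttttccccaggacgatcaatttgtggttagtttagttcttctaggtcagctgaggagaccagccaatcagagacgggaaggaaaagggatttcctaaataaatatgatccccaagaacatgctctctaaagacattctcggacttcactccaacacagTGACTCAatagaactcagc
Fgl2, chr5:21372423-21372722, plus strand: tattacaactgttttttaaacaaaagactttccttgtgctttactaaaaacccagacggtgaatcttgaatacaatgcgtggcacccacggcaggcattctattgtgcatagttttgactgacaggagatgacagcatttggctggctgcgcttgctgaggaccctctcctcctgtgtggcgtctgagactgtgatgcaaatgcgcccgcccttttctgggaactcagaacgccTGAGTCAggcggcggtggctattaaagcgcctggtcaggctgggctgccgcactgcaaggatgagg
Tlr9, chr9:106222348-106222647, plus strand: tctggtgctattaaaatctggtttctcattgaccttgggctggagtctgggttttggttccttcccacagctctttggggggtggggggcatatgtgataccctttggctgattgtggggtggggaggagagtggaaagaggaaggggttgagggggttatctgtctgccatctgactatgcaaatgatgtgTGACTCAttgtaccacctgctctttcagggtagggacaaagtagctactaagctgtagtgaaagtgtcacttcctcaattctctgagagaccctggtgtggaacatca
In Cxcl9 the capitals mark, in order, the interferon, NF-κB (reverse strand) and AP-1 letters, and in Fgl2 and Tlr9 they mark the AP-1 letters. These are the promoters of the genes with values of 2801, 20716 and 1531 in the Z8 KO library and 1396, 8112 and 577 in the rescue library.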

How the data were processed

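RNA-seq of the libraries labelled Z8 KO and Z8 KO + Z8 was analysed. The RNA-Seq part of the Methods describes BMDM libraries only, from polyadenylated RNA aligned to mm10 with TopHat. Whether the libraries compared here were prepared that way is not stated there. The submitters' processing notes name Bowtie 0.12.2 and CASAVA 1.4. Strandedness of the counting is not given in the sources used here. The authors deposited a signal value per gene, which was whole reads over a per-library size factor (tolerance 0.05 reads) for every gene but Zmynd8 in the Z8 KO library. Size factors multiplied to 1. The authors' fold changes and p-values were not used, nor were 2 unlabelled columns of per-sample values in the table of the D/E-A line. For BMDMs, the authors deposited estimated counts, which were rounded and scaled to CPM. Gene names turned into dates (23) were kept. The fold of log2(value + 1) was computed in Python 3.11.15 for genes whose mean value reached 10, and calls needed a fold of 2. Exact limits came from scipy 1.17.1. The steps were tested on simulated data. Exon lengths came from GENCODE and covered 96.49% of protein-coding genes.

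Named genes are those the study names for expression, the 12 highest and 12 lowest called genes whose mean value reached 100, up to 4 members of each list with the largest difference and its most abundant member, the sex-chromosome genes, Nos2 and S100a8. Other names, such as Tnf, Tlr4 and Malat1, were chosen after their values were seen. The members and the 37 gene lists were chosen with earlier results of these data known. Some members of the lists are counted but not reported by name here. Alternatives were another pseudocount, filter, scaling, fold, a read test and protein-coding genes alone.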

Additional observations from a re-analysis of the deposited data

How the results depend on the processing

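The share of compared genes called depended on the filter and fold, from 3.5% higher and 7.46% lower as reported. At a mean of 1 or more, 8.29% were higher in the Z8 KO library and 17.3% lower (1765 and 3694 genes), and with no filter 9.87% and 18.3% (2346 and 4361). A mean of 100 or more left 1.33% higher and 0.967% lower (211 genes in all, 89 of them lower). At 1.2-fold 34.7% were higher and 28.3% lower, and at 4-fold 0.276% and 1.43% (40 and 207). Among protein-coding genes alone 3.17% were higher and 3.06% lower (380 and 366), and with a mean of 100 or more 1.25% and 0.398% (110 and 35). Library totals without ribosomal RNA genes gave 2.28% higher (330) and 8.95% lower (1296). This last scaling and the 2 protein-coding settings were chosen after seeing the data.

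Higher genes made up 31.9% of calls in the reported comparison, 26.0% under library totals, 20.3% under totals without ribosomal RNA and 57.8% at a mean value of at least 100. Totals without ribosomal RNA shifted every difference by -0.14, and the median of all genes became -0.08. Under it the medians of chemokines (-0.02), ZMYND8 partners (-0.05), housekeeping genes (-0.03), inflammatory cytokines (-0.12) and B cell markers (-0.12) fell below 0. Those of LXR targets and of genes of the unfolded protein response fell below 0 too. A pseudocount of 0.1 (536 and 1138), library totals (417 and 1187), a median set to 0 (423 and 1174) and a read test added to the fold (446 and 934) kept both counts within 1.5 times. Library totals ended 90 of the 507 higher calls, a median set to 0 ended 84 and totals without ribosomal RNA 177, and none of these ended a lower call. Of 86 called genes among those named and listed, these settings ended 8, 5 and 17, among them Gas6 in each and Pparg without ribosomal RNA, and changed the sign of 0. The pseudocount ended 0. No paired analysis was possible because each side holds 1 library. Depth limits genes of low level, where 1376 of the 1587 calls had a mean value under 100.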

Other observations

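Genes of further cell types and pathways were looked up in the same table, in which 3.5% of all compared genes were called higher and 7.46% lower. Of 20 compared alternative activation genes, 2 were called higher in the Z8 KO library (Mrc1 and Myc; 10% of the list) and 1 lower (Ccl24; 5%), with a median of 0.30. Of 38 macrophage transcription factors, 2 were called higher (5.26%) and 1 lower (2.63%). Pparg, a nuclear receptor of lipid handling, had 75 in the Z8 KO library and 34 in the rescue library (1.10), Hes1, a target of Notch, had 16 and 47 (-1.47), and Spi1, which encodes PU.1, had 18022 and 13895 (0.38). Of 27 scavenger and efferocytosis genes, 2 were called higher (7.41%) and 0 lower, with a median of 0.37. Of these 2, 1 reached the mean of 10 through the Z8 KO library alone. At mean values of 100 or more, 1 of 23 was called higher (4.35%, beside 1.33% of all genes at that level). Gas6, a bridging ligand for dying cells, had 391 and 193 (1.02), and Apoe had 221482 and 229387 (-0.05).

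Of 14 dendritic cell markers, 1 was called higher (7.14%) and 0 lower, with Clec9a, a receptor of cross-presenting dendritic cells, at 123 and 48 (1.34) and Zbtb46, a factor of conventional dendritic cells, at 43 and 82 (-0.92). Of 11 erythroid and megakaryocyte markers, 0 were called higher and 2 lower (18.2%), 3 were higher and 5 lower at 1.2-fold, and the median was -0.13. The 2 were the hemoglobin genes Hba-a1 (77 and 175) and Hba-a2 (21 and 54), and because they are near-identical copies their reads may be split between them. Of 18 matrix proteases and inhibitors, 0 were called higher and 1 lower (Timp1; 5.56%), and Mmp12, the macrophage elastase, had 386 and 202 (0.93). App, the amyloid precursor protein, had 9959 and 4335 (1.2) and Adam9, a membrane sheddase, 1914 and 785 (1.28), both chosen after their values were seen. Glycolysis and hypoxia genes (29 compared) had 0 calls and a median of -0.04, and genes of the unfolded protein response (22) 0 calls and 0.05. Phagocyte oxidase subunits (8), LXR targets (12), osteoclast genes (12) and mast cell and basophil markers (7) had no call either, with medians of -0.09, 0.13, 0.20 and 0.56. Of 10 progenitor markers, Myc was called higher and Sox4 lower, and of 7 fibroblast and stromal markers Thy1 was called lower, having reached the mean of 10 through the rescue library alone.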
